A study of Mus musculus with 74 samples.

Results

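Triglyceride-rich lipoproteins and free fatty acids reach fat and liver through a small set of proteins, and 10 genes for these proteins were followed here in male B6C3F1 mice given troglitazone, Elmiron or fenretinide. They are Cd36, Lpl, Gpihbp1, Angptl4, Fabp1, Fabp4, Fabp5, Slc27a1, Slc27a2 and Vldlr. They were taken by symbol, with no cut on a measured value, though earlier results of these data were known. All 10 were on the array, as 10 of 18193 genes and 25 of 34945 probe sets that carry a single symbol. Where a gene had several probe sets, the brightest over all arrays stood for it.

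The study dosed mice for 15 or 29 days and hybridised RNA of tissues in which the 3 agents are associated with hemangiosarcoma, giving 74 one-colour Affymetrix arrays in 16 groups. White fat came from mice on a diet with fenretinide, a synthetic retinoid, at 500 mg/kg, with 3 treated and 3 vehicle mice at the earlier time and 4 of each kind at the later one. Brown fat and liver came from mice given troglitazone, a thiazolidinedione that activates the nuclear receptor PPARγ, by mouth at 1200 mg/kg. Liver also came from mice given Elmiron (pentosan polysulfate, a semi-synthetic sulfated polysaccharide) by mouth at 1000 mg/kg, and each troglitazone and Elmiron group had 5 mice. Each study had vehicle groups of its own on each day, which received none of the agents. The doses were set above the high doses of the carcinogenicity studies, so they are not therapeutic doses, and the labels give neither the age of the mice nor the fat depot.

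Lipoprotein lipase, the product of Lpl, splits the triglyceride of chylomicrons and VLDL on the capillary wall. It is carried there and held by GPIHBP1, an endothelial membrane protein, and it is inactivated by ANGPTL4, a secreted inhibitor. The VLDL receptor binds the particles, CD36 and the transport proteins FATP1 (Slc27a1) and FATP2 (Slc27a2) take up the released fatty acids, and the binding proteins FABP1, FABP4 and FABP5 carry them inside the cell. Several of these genes are textbook targets of PPARγ in adipocytes or PPARα in hepatocytes, and in the adult the liver makes little lipoprotein lipase compared with fat.

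Binding sites for PPAR with its partner RXR are direct repeats of a core site with 1 base between the copies. A pair of AGGNCA copies in the same direction, with any 1 base between them, was searched on both strands in RefSeq promoter windows of GRCm38.p6, which run from 250 bases before to 50 bases after the annotated start. Entries existed for 5 of the 10 members (Cd36, Fabp1, Slc27a1, Slc27a2 and Vldlr, with 8 windows in all). The pair was present in the Fabp1 window, and in 125 of all 32851 windows (0.381%). The Fabp1 window is shown because it holds the match, written in capitals, and the Cd36 window because Cd36 was the member that changed in liver. The match on the Fabp1 window lies on the opposite strand and its first base as printed is at position -67 from the start. The other 7 windows hold no such letters, which says nothing about binding elsewhere.
Fabp1 (chr6:71199629-71199928, plus strand): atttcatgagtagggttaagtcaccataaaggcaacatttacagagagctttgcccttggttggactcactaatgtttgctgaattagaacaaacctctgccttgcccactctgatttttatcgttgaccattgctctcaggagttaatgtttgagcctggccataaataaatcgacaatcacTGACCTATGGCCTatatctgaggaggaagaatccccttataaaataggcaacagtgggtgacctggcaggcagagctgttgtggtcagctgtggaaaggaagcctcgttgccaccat
Cd36 (chr5:17835847-17836146, minus strand): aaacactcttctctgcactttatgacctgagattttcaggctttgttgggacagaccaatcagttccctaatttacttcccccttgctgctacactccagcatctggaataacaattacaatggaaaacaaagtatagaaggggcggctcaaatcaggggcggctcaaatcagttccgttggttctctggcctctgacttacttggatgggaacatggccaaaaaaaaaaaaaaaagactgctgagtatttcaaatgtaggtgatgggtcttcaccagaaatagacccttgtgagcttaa

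Values are log2 of the deposited intensity. The table carries no detection calls, so a low value cannot be separated from background. Most arrays matched their tissue: hepatocyte markers averaged 14.76 to 14.89 in the 40 liver arrays, and brown adipocyte markers 12.59 to 13.11 in 18 of the 20 brown fat arrays. The other 2 brown fat arrays, both of day 29, went against their label. Brown adipocyte markers averaged 7.53 in vehicle mouse 82 and 8.61 in troglitazone mouse 95, with white adipocyte markers at 13.56 and 13.94, and mouse 82 also had hepatocyte markers at 12.89. Tests in brown fat are therefore given with all arrays and, for part of the values, also without these 2. That choice was made after the values were seen. Skeletal muscle markers ranged from 9.85 to 14.47 in the other 18 brown fat arrays. On day 15 they averaged 9.85 to 13.06 in troglitazone mice and 10.10 to 14.00 in vehicle mice. Their median change there was -0.49, with 0 of 9 called, and their part in the member values was not tested. Mixed tissue of this kind, fewer cells of a type and less RNA per cell cannot be told apart in bulk RNA.

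**Figure D1:**
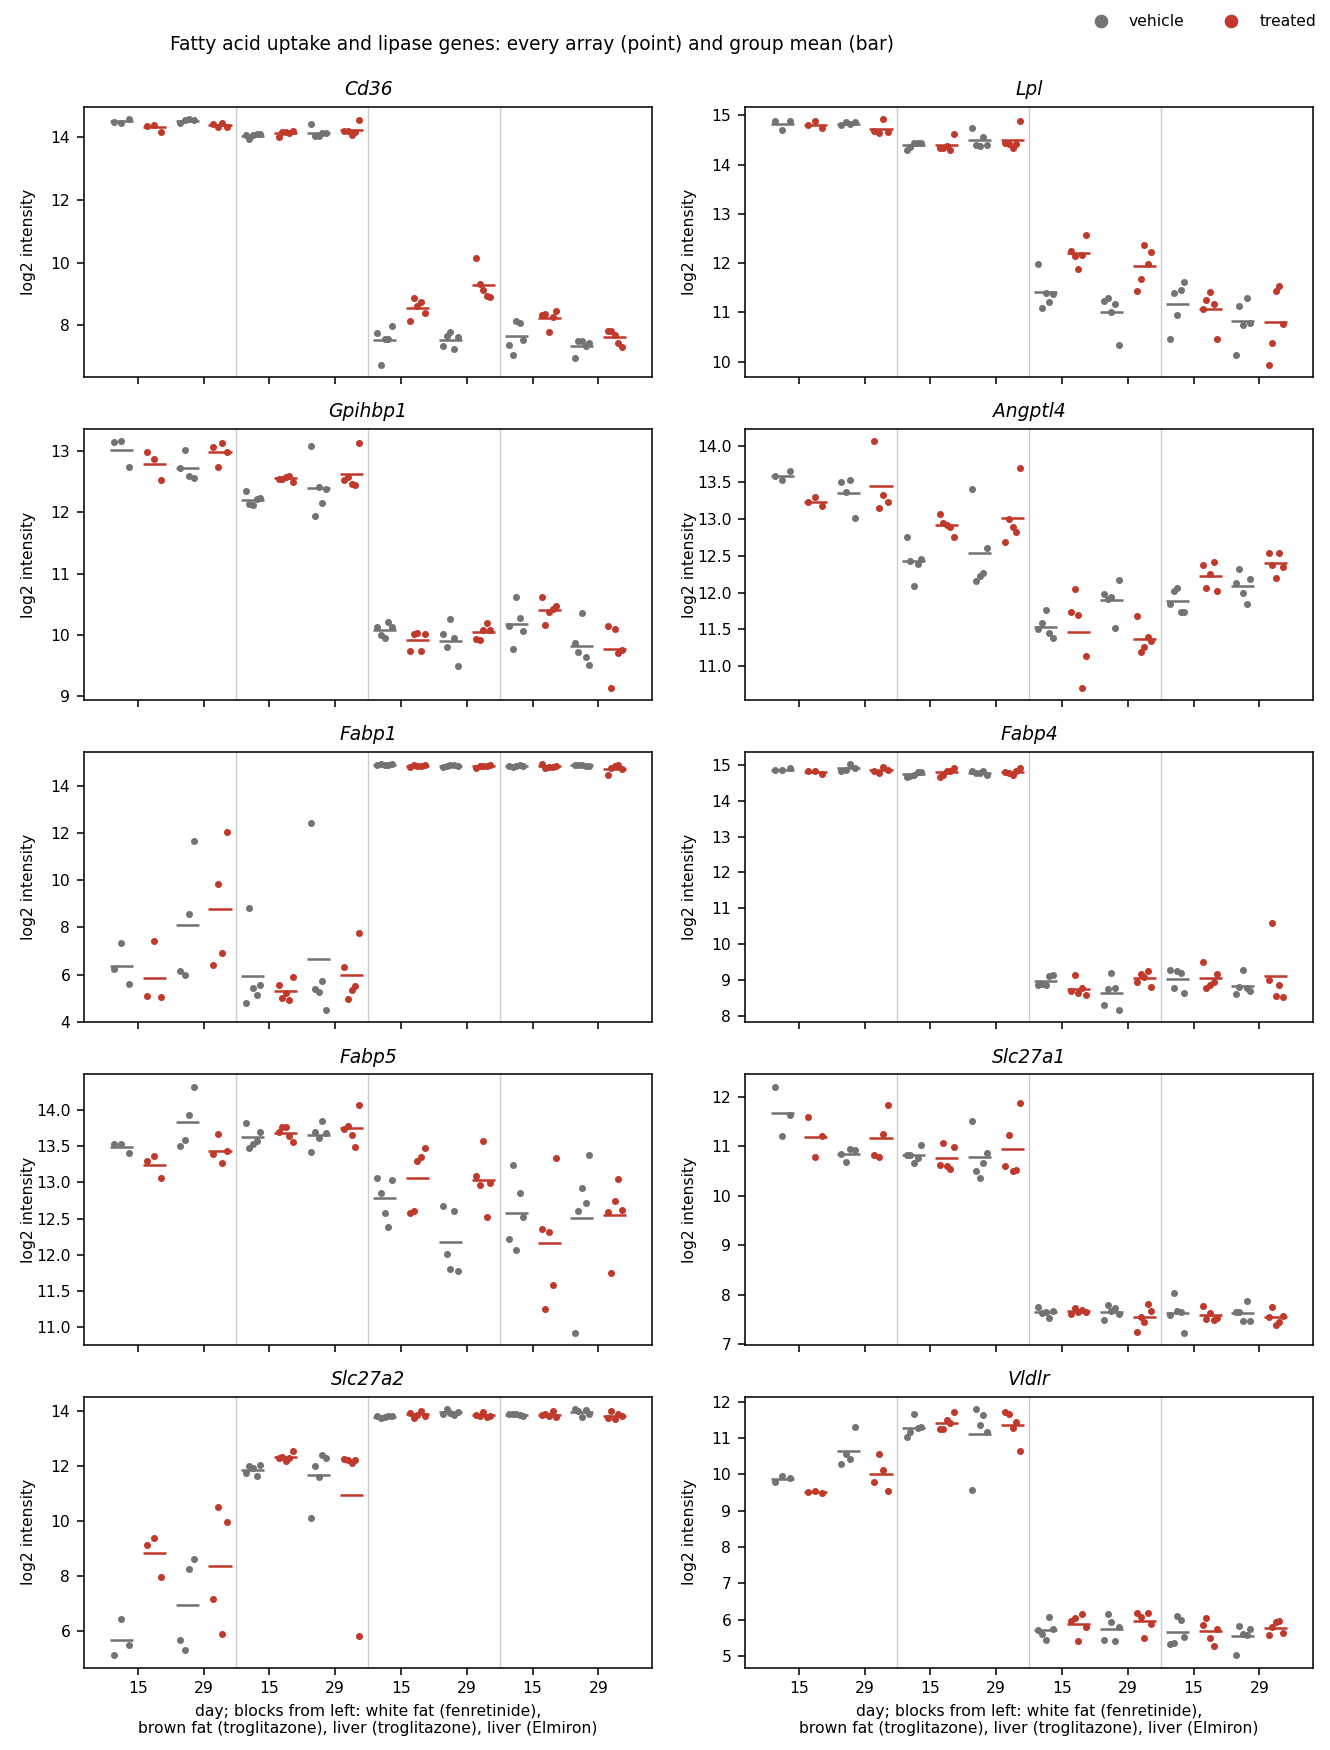
Log2 intensity of each of the 10 genes (1 panel per gene, each with its own scale) in all 74 arrays, with a bar at each group mean. Blocks from left are white fat, brown fat, liver under troglitazone and liver under Elmiron, each with its vehicle mice. Fabp1 and Slc27a2 were highest in liver, and Cd36 in liver stood between 8.91 and 10.15 after 29 days of troglitazone against 7.24 to 7.80 in vehicle mice.

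The tissues separated the genes into a fat group and a liver group. In vehicle mice of the troglitazone study, where both tissues came from the same experiment, brown fat and liver differed for all 10 genes on both days (limma, Benjamini-Hochberg adjusted p below 0.05 over 18193 genes). Of the members, 8 were higher in brown fat on each day, where 28.1% of all genes were higher on day 15 and 28.3% on day 29. The other 2, Fabp1 and Slc27a2, were higher in liver, as were 35.1% and 37.5% of all genes. Tissue differences were thus common over the whole array, and the count of members says little by itself. Without mice 82 and 95 all 10 were again called, beside 68.6% of genes on day 15 and 65.7% on day 29.

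CD36, the scavenger receptor that takes up long-chain fatty acids, showed a wide gap between the tissues. Its log2 intensity was 13.93 to 14.55 in the 20 brown fat arrays and 6.74 to 10.15 in the 40 liver arrays. Brown fat exceeded liver by 6.51 ± 0.18 (SE, n = 5 and 5) on day 15 and 6.60 ± 0.18 on day 29. White fat, measured in another study and so not tested against the others, lay between 14.16 and 14.57. Brown fat reached 14.18 when mice 82 and 95 were left out. The 2 fats were close to each other, and liver was far below both.

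Fabp4, the fatty acid binding protein of adipocytes, was 14.66 to 14.91 in brown fat, 14.75 to 15.03 in white fat and 8.15 to 10.57 in liver. The differences between brown fat and liver were 5.76 ± 0.12 and 6.15 ± 0.12. The 2 fats overlapped for Fabp4, and liver lay below both.

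Vldlr, the receptor for VLDL particles, was 11.04 to 11.80 in the 18 brown fat arrays that matched their label, 9.50 to 11.32 in white fat and 5.02 to 6.19 in liver. Its brown fat to liver differences were 5.57 ± 0.25 and 5.35 ± 0.25. Slc27a1, the insulin-responsive transporter of fat and muscle, was 10.37 to 11.88 in brown fat, 10.68 to 12.21 in white fat and 7.23 to 8.03 in liver. Brown fat reached 11.22 without the 2 mice. For Slc27a1 brown fat and white fat overlapped with and without mice 82 and 95, and no liver array reached either. Its brown fat to liver differences were 3.17 ± 0.18 and 3.13 ± 0.18.

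Lpl itself was high in every fat array, at 14.30 to 14.88 in brown fat and 14.64 to 14.93 in white fat. In liver it was 9.93 to 12.58, and brown fat exceeded liver by 2.99 ± 0.17 on day 15 and by 3.49 ± 0.17 on day 29. Brown fat reached 14.62, below every white fat array, when mice 82 and 95 were left out. Gpihbp1, its capillary anchor, was at 11.94 to 13.14 in brown fat (up to 12.60 without the 2 mice), 12.54 to 13.16 in white fat and 9.13 to 10.62 in liver. Brown fat exceeded liver by 2.14 ± 0.14 and 2.5 ± 0.14. The inhibitor Angptl4 had the smallest tissue gap of the lipase group. It was 12.09 to 13.70 in brown fat (up to 13.07 without the 2 mice), 13.02 to 14.06 in white fat and 10.71 to 12.54 in liver, with brown fat above liver by 0.89 ± 0.20 on day 15 and 0.63 ± 0.20 on day 29. On day 29 the arrays of the 2 tissues overlapped for Angptl4, and without vehicle mouse 82 alone the difference was 0.41 with an adjusted p of 0.0535.

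Fabp5, the epidermal binding protein that macrophages and adipocytes also make, was 13.42 to 14.06 in brown fat (13.47 to 13.85 without mice 82 and 95), 13.06 to 14.32 in white fat and 10.93 to 13.57 in liver. Its difference was 0.83 ± 0.18 on day 15 and 1.48 ± 0.18 on day 29. Liver values of Fabp5 ranged more widely than those of either fat.

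Fabp1, the liver binding protein whose promoter window holds the repeat shown above, was 14.46 to 14.92 in all 40 liver arrays. In brown fat it was 4.50 to 12.40 with a median of 5.42 (up to 8.81 without mouse 82), and in white fat 5.05 to 12.02 with a median of 6.66. Liver exceeded brown fat, so the brown fat minus liver difference was -8.94 ± 0.81 on day 15 and -8.19 ± 0.81 on day 29. Leaving out 1 array at a time gave -9.62 to -7.65 on day 29. Slc27a2, a very long chain acyl-CoA synthetase and transporter of liver and kidney, was 13.72 to 14.07 in liver. It was 11.61 to 12.54 in the 18 brown fat arrays that matched their label and 5.11 to 10.50 in white fat, so each tissue had a range of its own. The brown fat minus liver difference of Slc27a2, with all arrays, was -1.93 ± 0.64 and -2.26 ± 0.64. Leaving out 1 array at a time gave -2.44 to -1.87 on day 29.

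Cd36 rose in the liver of troglitazone mice. On day 29 its log2 intensities were 10.15, 9.31, 9.12, 8.93 and 8.91 in treated mice and 7.35, 7.67, 7.80, 7.24 and 7.63 in vehicle mice. Every treated liver was above every vehicle liver. The change was 1.75 ± 0.22 (SE), 3.35-fold, with a limma adjusted p of 6.05e-04, and Cd36 was the 1 member called among 10, beside 0.115% of all genes. All 3 Cd36 probe sets rose, by 1.75, 1.99 and 1.24 (called among 34945 probe sets). Without mouse 92, which had the highest value, the change was 1.53.

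Cd36 was also higher on day 15 without passing the test. Treated livers had 8.16, 8.88, 8.63, 8.76 and 8.41, and vehicle livers 7.76, 6.74, 7.58, 7.56 and 7.98, so the groups did not overlap. The change was 1.04 ± 0.22 with an adjusted p of 0.144. On that day limma called 0 members and 0.022% of genes, 2 members (Cd36 and Lpl) had an unadjusted p under 0.05, and 4.3% of genes did. Groups without overlap occurred for 1 of 10 members on day 15 (2.09% of genes) and for 2 of 10 on day 29 (1.07% of genes).

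Macrophages also make CD36, and their markers were higher in some of the same livers, with overlapping ranges and none called. The mean of the 14 macrophage and Kupffer cell markers was 9.18 to 10.28 in troglitazone livers of day 29 and 8.73 to 9.38 in vehicle livers, and 9.12 to 10.18 against 8.95 to 9.50 on day 15. The median change of the 14 was 0.47 on day 29 and 0.29 on day 15. On day 29 mouse 92 had the highest macrophage mean (10.28) and the highest Cd36, while on day 15 the highest macrophage mean (10.18) was in mouse 54, whose Cd36 of 8.63 was in the middle of its group. The adipocyte hormone Adipoq stayed at 4.78 to 6.05 in all livers of the troglitazone study, against 14.42 or more in fat. The part of macrophages in the Cd36 change was not tested.

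Lpl was the second member set apart in liver, without passing the test. On day 29 its values were 11.44, 11.67, 12.38, 11.99 and 12.22 after troglitazone and 11.23, 11.29, 11.02, 11.17 and 10.33 in vehicle mice. The groups did not overlap. The change was 0.93 ± 0.20 with an adjusted p of 0.0689, and the second Lpl probe set gave 1.04 ± 0.24. Leaving out treated mouse 92 gave 1.06 with an adjusted p of 0.0333, and using the vehicle livers of the Elmiron study gave 1.12, also past the threshold. With those vehicle livers agent and study cannot be told apart, and their mean Lpl was lower, at 10.82 against 11.01. On day 15 treated livers were 12.26, 12.14, 11.88, 12.17 and 12.58, and vehicle livers 11.98, 11.09, 11.39, 11.22 and 11.38, a change of 0.79 ± 0.20 with an adjusted p of 0.42. Only vehicle mouse 42 of day 15 reached into the treated range.

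Neither partner of the lipase was called in liver. Gpihbp1 changed by -0.17 ± 0.11 on day 15 and 0.14 ± 0.11 on day 29 (adjusted p = 0.957 and 0.692). Angptl4 was 11.68, 11.20, 11.26, 11.40 and 11.34 in troglitazone livers of day 29 and 11.98, 11.92, 11.94, 11.51 and 12.17 in vehicle livers, so 1 vehicle mouse (87) lay within the treated range. The change was -0.53 ± 0.18 with an adjusted p of 0.402, after -0.07 ± 0.18 on day 15. The second, dimmer Angptl4 probe set changed by -0.01 ± 0.07 on day 29.

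Among the binding proteins in liver, Fabp5 had the largest difference. Its day 29 values were 13.09, 12.96, 13.57, 12.53 and 12.98 with troglitazone and 12.67, 12.01, 11.81, 12.60 and 11.78 without, a change of 0.85 ± 0.22 with an adjusted p of 0.178. On day 15 it was 0.27 ± 0.22. Fabp4 changed by 0.41 ± 0.15 on day 29 (adjusted p = 0.428) and -0.22 ± 0.15 on day 15, and its 4 probe sets did not share a sign on either day. Fabp1, at the top of the intensity scale, changed by -0.04 ± 0.06 and -0.01 ± 0.06. The 95% interval of its day 29 change was -0.14 to 0.11.

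The other 3 members were close to vehicle in troglitazone livers. Slc27a1 changed by 0.02 ± 0.09 and -0.11 ± 0.09, Slc27a2 by 0.08 ± 0.07 and -0.10 ± 0.07, and Vldlr by 0.16 ± 0.16 and 0.22 ± 0.16. None of these 6 changes had an unadjusted p under 0.05. On day 29 the median change over the 10 members was 0.18, against 0.00 over all genes, and 5 members had an unadjusted p under 0.05 (10.2% of genes).

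**Figure D2:**
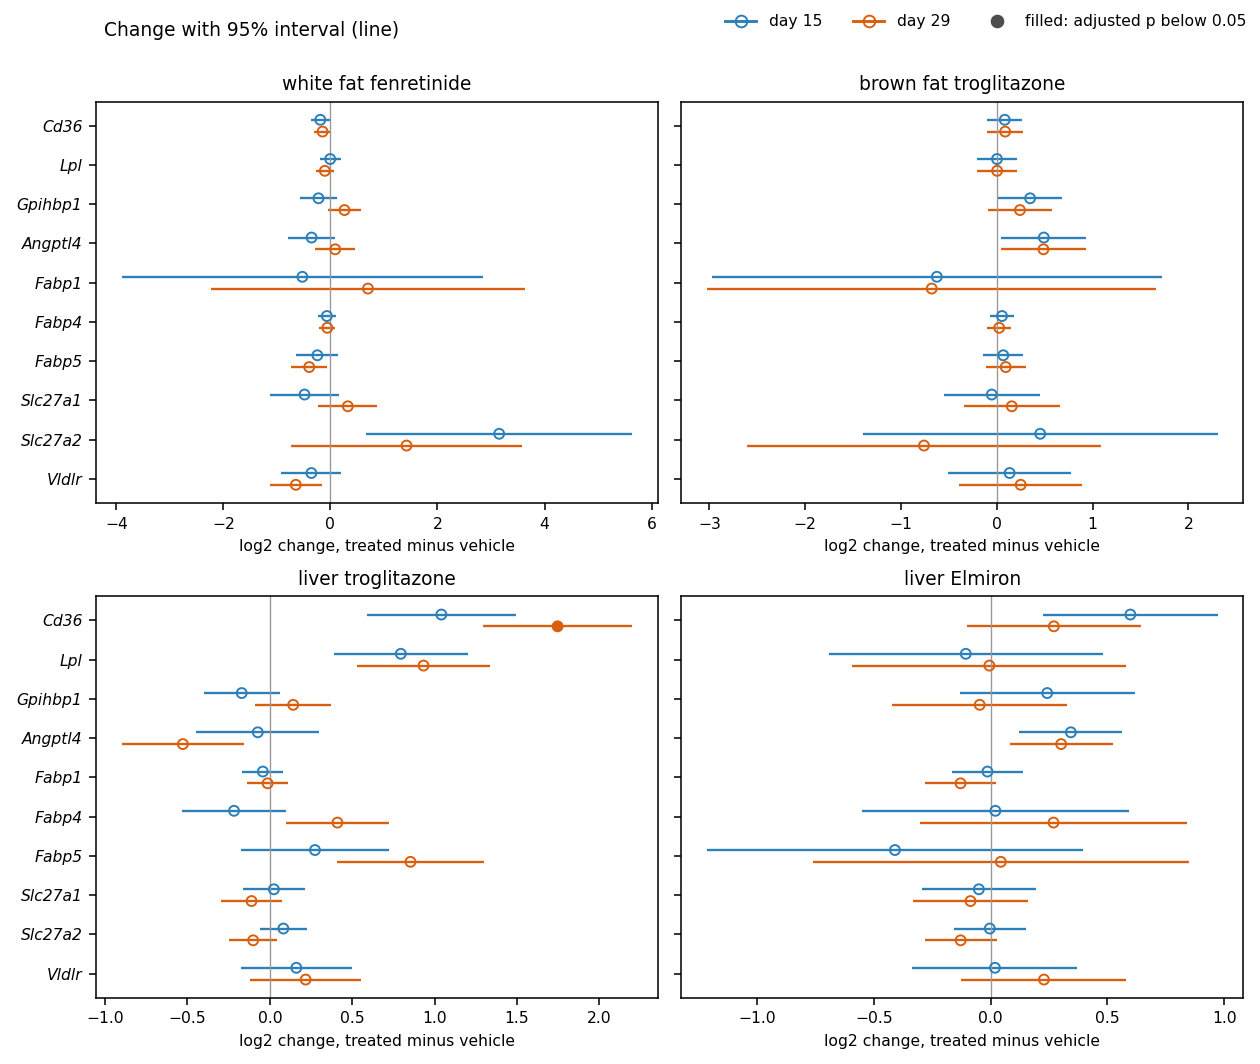
Log2 change, treated minus vehicle, of the 10 genes in each tissue and agent, with its 95% interval as a line (day 15 blue, day 29 orange, each panel with its own scale). The filled point, Cd36 in troglitazone liver on day 29 at 1.75, is the single change with an adjusted p below 0.05.

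**Figure D3:**
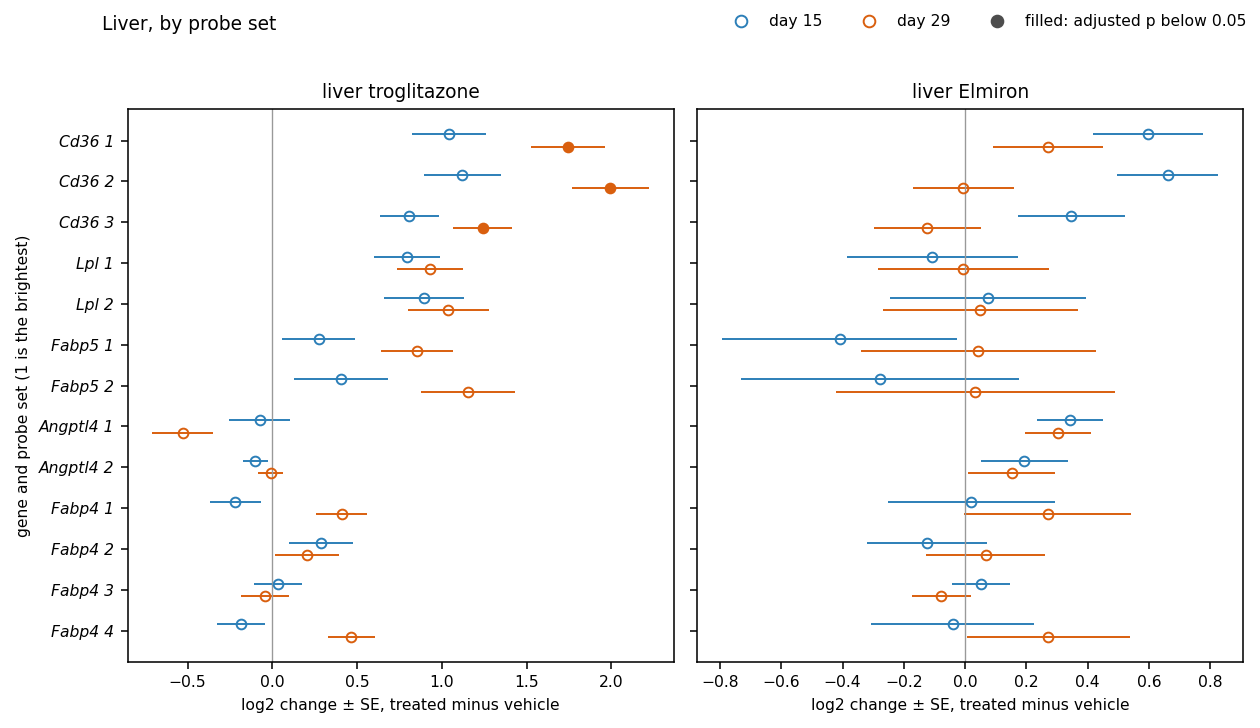
Log2 change ± SE in liver by probe set for Cd36, Lpl, Fabp5, Angptl4 and Fabp4, numbered from the brightest, after troglitazone (left) and Elmiron (right), with p-values adjusted over 34945 probe sets. The 3 Cd36 probe sets lay between 1.24 and 1.99 after 29 days of troglitazone and between -0.12 and 0.27 after 29 days of Elmiron.

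In brown fat of the same study, with all 20 arrays, no member was called. limma called 0.0605% of genes on day 15 and 0.055% on day 29, and 2 members (Gpihbp1 and Angptl4) on day 15 and 1 member (Angptl4) on day 29 had an unadjusted p under 0.05, beside 3.75% and 6.01% of genes. Cd36 changed by 0.08 ± 0.09 and 0.09 ± 0.09, Lpl by 0.00 ± 0.10 on both days, and Fabp4 by 0.05 ± 0.06 and 0.02 ± 0.06. The day 29 values without mice 82 and 95 were 0.07 ± 0.06 for Cd36, -0.03 ± 0.07 for Lpl and 0.01 ± 0.06 for Fabp4. These are the brightest probe sets. Dimmer ones changed by up to 0.71 (day 15) and 0.38 (day 29) for Fabp4, 0.27 and 0.21 for Cd36, and 0.08 and 0.04 for Lpl, with none called. The median change of the 10 was 0.07 on day 15 and 0.09 on day 29, against 0.00 and 0.01 over all genes.

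Angptl4 was the member with the most regular difference in brown fat. On day 15 troglitazone mice had 13.07, 12.95, 12.92, 12.89 and 12.76, and vehicle mice 12.76, 12.44, 12.09, 12.39 and 12.46. The groups met only at 12.76. On day 29 troglitazone mice had 12.69, 13.01, 12.89, 12.82 and, in mouse 95, 13.70. Vehicle mice had 12.16, 12.22, 12.27, 12.61 and, in mouse 82, 13.41. The 2 arrays that went against their label were thus the highest of their groups, and without them the treated group was above the vehicle group.

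With all arrays the Angptl4 change was 0.49 ± 0.21 on each day, with an adjusted p of 0.762 on day 29. Without mice 82 and 95 it was 0.49 ± 0.11 on day 15 (adjusted p = 0.0379) and 0.54 ± 0.12 on day 29 (adjusted p = 0.0409), and it was called on both days. The share of all genes called was then 0.951% on day 15 and 1.09% on day 29. A fit that weights each array by its agreement with the others, with no array left out, also called Angptl4 on both days, at 0.54 and 0.57. Such weights lower the part of arrays that stand apart from their group. That fit is therefore not independent of the choice to leave out mice 82 and 95.

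Gpihbp1 was 12.56, 12.56, 12.58, 12.60 and 12.50 in troglitazone brown fat of day 15 and 12.34, 12.13, 12.11, 12.23 and 12.24 in vehicle brown fat. The groups did not overlap and differed by 0.35 ± 0.16 with all arrays in the fit. Without mice 82 and 95 the SE was 0.08 and the adjusted p 0.036. On day 29 the change was 0.24 ± 0.16, or 0.29 ± 0.09 with an adjusted p of 0.113 without the 2 arrays. Endothelial cells carry this protein, and the mean of the 12 endothelium markers was 9.97 to 10.18 in troglitazone brown fat of day 15 and 9.77 to 10.14 in vehicle. In the fit without the 2 arrays 1 of the 12, Cldn5, was called, at 1.52 ± 0.18. Their part in the Gpihbp1 difference was not tested.

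Slc27a2 in brown fat depended on the same 2 arrays. On day 15 it was 12.28, 12.31, 12.19, 12.29 and 12.54 with troglitazone and 11.74, 12.00, 11.94, 11.62 and 12.03 without, with no overlap, as in 2 of 10 members (the other being Gpihbp1) and 3.25% of genes. That change was 0.45 ± 0.88 with all arrays and 0.45 ± 0.12 without mice 82 and 95 (adjusted p = 0.108). On day 29 mouse 95 had 5.82 against 12.11 to 12.27 in the other troglitazone mice, and mouse 82 had 10.12 against 11.61 to 12.39 in the other vehicle mice. The day 29 change was -0.76 ± 0.88 with all arrays and 0.12 ± 0.14 without the 2.

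The remaining brown fat values were close to vehicle or set by single arrays. Fabp5 changed by 0.07 ± 0.10 and 0.09 ± 0.10, Slc27a1 by -0.05 ± 0.24 and 0.16 ± 0.24, and Vldlr by 0.13 ± 0.30 and 0.25 ± 0.30. Fabp1 was at 12.40 in mouse 82 and at 8.81 in day 15 vehicle mouse 42, whose hepatocyte marker means were 12.89 and 9.46, and at 4.50 to 5.74 in the other 8 vehicle arrays. The Fabp1 changes, -0.63 ± 1.12 and -0.68 ± 1.12, therefore had wide errors. The day 29 changes without mice 82 and 95 were 0.31 ± 0.62 for Fabp1, -0.04 ± 0.08 for Fabp5, 0.11 ± 0.16 for Slc27a1 and 0.04 ± 0.15 for Vldlr. Those of Fabp1 and Fabp5 thus turned sign, and none was called.

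The effect of troglitazone on Cd36 differed between brown fat and liver on day 29. Cd36 was near the top of the intensity scale in brown fat, at 13.93 to 14.55, and at 6.74 to 10.15 in liver. Dimmer Cd36 probe sets changed more in brown fat than the brightest, by up to 0.27 on day 15 and 0.21 on day 29. Whether the array shows smaller changes at high intensity was not tested. The brown fat effect minus the liver effect was -1.66 ± 0.25 on day 29 (limma interaction over 40 arrays, adjusted p = 0.0024), where 1 member and 0.0165% of genes were called. On day 15 it was -0.96 ± 0.25 with an adjusted p of 0.471, with 0 members and 0.022% of genes called, and 3 members had an unadjusted p under 0.05 (3.19% of genes). For Lpl the differences were -0.79 ± 0.23 and -0.93 ± 0.23 (adjusted p = 0.787 and 0.246). The other 2 Cd36 probe sets gave day 29 differences of -1.84 (adjusted p = 0.0021) and -1.03 (adjusted p = 0.156, over 34945 probe sets), so the third did not pass. Of the other members, none called, Gpihbp1 differed by 0.52 ± 0.20 on day 15 and 0.10 ± 0.20 on day 29, Fabp4 by 0.27 ± 0.17 and -0.39 ± 0.17, and Fabp5 by -0.21 ± 0.26 and -0.76 ± 0.26. Slc27a1 differed by -0.08 ± 0.26 and 0.27 ± 0.26, and Vldlr by -0.03 ± 0.36 and 0.03 ± 0.36. Fabp1 differed by -0.58 ± 1.14 and -0.67 ± 1.14, and Slc27a2 by 0.37 ± 0.90 and -0.66 ± 0.90. The day 29 signs of Fabp1 and Slc27a2 depended on single arrays. With 1 array left out at a time these differences ranged from -1.21 to 0.77 and from -1.05 to 0.62.

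Angptl4 differed in the other direction. Its brown fat effect exceeded its liver effect by 1.01 ± 0.29 on day 29 (adjusted p = 0.488 with all arrays). Without mice 82 and 95 the difference was 1.06 ± 0.24 (adjusted p = 0.0428), called with Cd36 at -1.68 ± 0.26 (adjusted p = 0.00182) where 0.269% of genes were called. The second, dimmer Angptl4 probe set gave 0.48 ± 0.23 with all arrays, below the 1.01 of the first. On day 15 without the 2 arrays no member was called (0.115% of genes), 5 members had an unadjusted p under 0.05 (6.28% of genes), and the Angptl4 difference was 0.56 ± 0.22. With all arrays the day 15 difference was 0.56 ± 0.29.

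**Figure D4:**
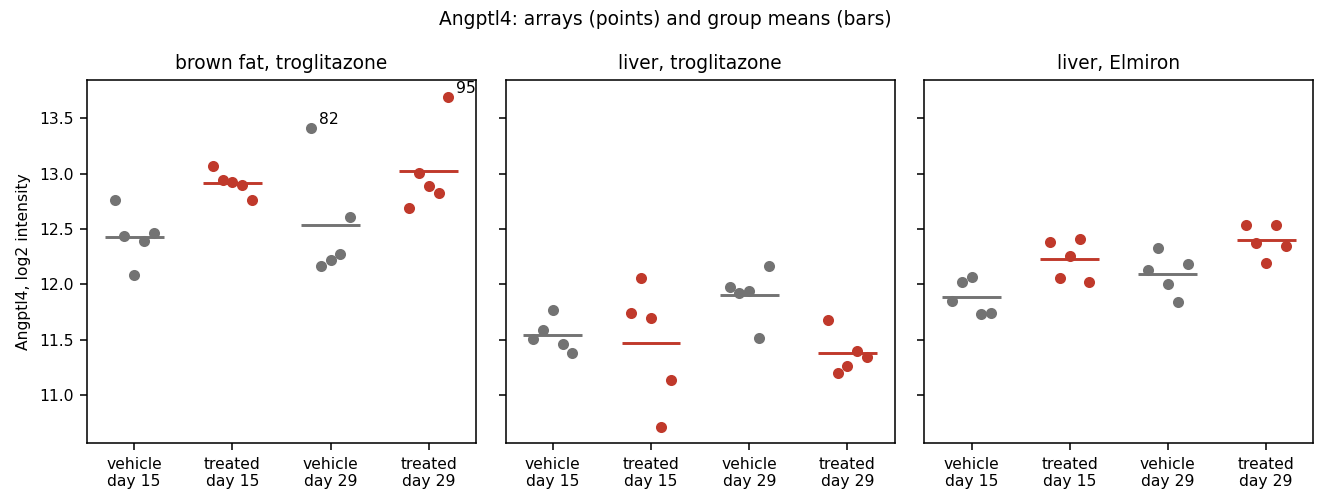
Log2 intensity of Angptl4 in each array (points) with group means (bars) in brown fat and liver under troglitazone and in liver under Elmiron, with their vehicle mice. Brown fat mice 82 and 95 are numbered. Without them treated brown fat lay at 12.69 to 13.01 on day 29, above vehicle at 12.16 to 12.61, and treated liver lay at 11.20 to 11.68 against 11.51 to 12.17.

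No member was called in Elmiron livers. limma called 0% of genes on day 15 and 0.0055% on day 29, and 2 members (Cd36 and Angptl4) and then 1 (Angptl4) had an unadjusted p under 0.05, beside 5.48% and 8.3% of genes. Cd36 was 8.35, 8.36, 7.78, 8.28 and 8.47 after 15 days of Elmiron and 7.38, 7.07, 8.15, 8.09 and 7.55 in vehicle mice, which overlapped. The change was 0.60 ± 0.18 (adjusted p = 0.658), and on day 29 it was 0.27 ± 0.18, where the 3 Cd36 probe sets ranged from -0.12 to 0.27. Macrophage and Kupffer cell markers averaged 9.55 to 10.17 in Elmiron livers of day 15 and 9.09 to 9.68 in vehicle livers, with 0 of 14 called and a median change of 0.51, and their part was not tested.

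Angptl4 was higher on both days of Elmiron without passing the test. Treated livers had 12.38, 12.06, 12.25, 12.41 and 12.02 on day 15, and vehicle livers 11.85, 12.02, 12.06, 11.74 and 11.74. The change was 0.34 ± 0.11 (adjusted p = 0.696) on day 15 and 0.30 ± 0.11 (adjusted p = 0.53) on day 29. The groups overlapped on both days. Day 15 vehicle livers of the troglitazone study had Angptl4 at 11.38 to 11.77, and against them the day 15 change was 0.68 and passed the threshold. In that comparison agent and study cannot be told apart.

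Lpl in Elmiron livers changed by -0.11 ± 0.28 (95% interval -0.69 to 0.48) on day 15 and by -0.01 ± 0.28 (-0.59 to 0.58). Fabp5 changed by -0.41 ± 0.39 and 0.04 ± 0.39. Its vehicle range of 10.93 to 13.37 on day 29 took in all 5 treated livers. Fabp4 was 10.57 in Elmiron mouse 92 of day 29 and 8.52 to 8.99 in the other 4 treated livers, and in that array Adipoq reached 8.09 and Ucp1 9.64. Fabp4 changed by 0.02 ± 0.27 on day 15 and by 0.27 ± 0.27 on day 29. Without mouse 92 the day 29 change turned sign, to -0.10. Gpihbp1 changed by 0.24 ± 0.18 and -0.05 ± 0.18, Vldlr by 0.02 ± 0.17 and 0.23 ± 0.17, Slc27a1 by -0.05 ± 0.12 and -0.09 ± 0.12, Fabp1 by -0.01 ± 0.07 and -0.13 ± 0.07, and Slc27a2 by 0.00 ± 0.07 and -0.13 ± 0.07.

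The troglitazone effect on liver Cd36 exceeded that of Elmiron on day 29 by 1.48 ± 0.30 (limma interaction over 40 liver arrays, adjusted p = 0.0307), where 1 member and 0.0934% of genes were called. Each effect was taken against the vehicle mice of its own study. The call was narrow: leaving out 1 of the 20 day 29 arrays at a time gave 1.26 to 1.57, and the adjusted p reached 0.0868 and missed the threshold in 9 of 20 cases. The 3 Cd36 probe sets gave differences of 1.48, 2.0 and 1.36. On day 15 the Cd36 difference was 0.44 ± 0.30 (adjusted p = 0.866), 0 members and 0.0055% of genes were called, and 1 member, Lpl, had an unadjusted p under 0.05 (5.97% of genes).

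Other liver members differed between the agents without passing the test. The day 29 difference was -0.83 ± 0.22 for Angptl4 (adjusted p = 0.153), 0.94 ± 0.36 for Lpl (adjusted p = 0.312) and 0.81 ± 0.47 for Fabp5 (adjusted p = 0.449). On day 15 these were -0.42 ± 0.22, 0.90 ± 0.36 and 0.68 ± 0.47. Gpihbp1 differed by -0.41 ± 0.22 and 0.19 ± 0.22, Fabp4 by -0.24 ± 0.33 and 0.14 ± 0.33, and Vldlr by 0.14 ± 0.25 and -0.01 ± 0.25. For Fabp1, Slc27a1 and Slc27a2 the differences lay between -0.03 and 0.12 on both days. The doses were 1200 mg/kg and 1000 mg/kg of unrelated agents, so the sizes are not a comparison at matched dose.

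Fenretinide called no member in white fat on either day, beside 3.95% of genes on day 15 and 1.34% on day 29. An unadjusted p under 0.05 was found for 2 members on each day, Cd36 and Slc27a2 and then Fabp5 and Vldlr, and for 19.7% and 14.8% of genes. The median change of the 10 was -0.23 and 0.02, against -0.04 and -0.02 over all genes. Groups did not overlap for 6 of 10 members on day 15 (27.9% of genes) and for 0 of 10 on day 29 (8.75% of genes). The groups of day 15 had 3 mice each.

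Slc27a2 had the largest difference in white fat. On day 15 fenretinide mice had 9.14, 9.38 and 7.97, and vehicle mice 5.11, 6.44 and 5.48. The groups were well apart, and the change was 3.15 ± 1.15 with an adjusted p of 0.151. Leaving out white fat mice 86, 93 and 95 of day 29, which had high hepatocyte or brown adipocyte markers, narrowed the SE to 0.74 and gave an adjusted p of 0.0482, where 3.57% of genes were called. Fitting the 6 arrays of day 15 alone (3.15) and weighting arrays (3.46) also called it. The first of these fits holds no array of day 29, and weights lower the part of arrays that stand apart. Neither is therefore independent of that choice.

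In the same day 15 arrays 10 of 14 epithelium markers were called higher, beside 3.95% of all genes called. The median change of the 14 was 2.81. Epcam was not among the 10, at 8.72 to 9.08 in fenretinide mice and 8.69 to 9.47 in vehicle mice. The marker mean was 9.48, 9.63 and 10.55 in fenretinide mice and 6.58 to 7.17 in vehicle mice. The smallest adjusted p-values among them were those of Prom1 (5.48 ± 0.18, adjusted p = 2.63e-09), Dsp, a desmosome protein (5.19 ± 0.29, adjusted p = 4.46e-07), and Cldn7, a tight junction protein (5.05 ± 0.29, adjusted p = 4.60e-07). Hepatocyte markers did not separate the groups, at 7.44 to 8.81 and 7.66 to 9.19. The part of epithelium in the Slc27a2 difference was not tested.

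On day 29 Slc27a2 and Fabp1 were high in the same 4 of 8 white fat mice. Fabp1 was 8.59 and 11.65 in vehicle mice 85 and 86 and 9.84 and 12.02 in fenretinide mice 93 and 95, and 5.98 to 6.90 in the other 4. Slc27a2 was 8.24, 8.61, 10.50 and 9.95 in those 4 mice and 5.31 to 7.15 in the rest. Their hepatocyte marker means were 9.20 to 12.52, against 8.05 to 8.43 in the others, and mouse 93 had brown adipocyte markers at 11.91. The changes were 0.70 ± 1.35 for Fabp1 and 1.42 ± 1.0 for Slc27a2. Without mice 86, 93 and 95 they were -0.25 ± 0.91 and 0.13 ± 0.83, no member was called, 2 had an unadjusted p under 0.05 (12.2% of genes), and 0.264% of genes were called. On day 15 Fabp1 changed by -0.52 ± 1.56.

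**Figure D5:**
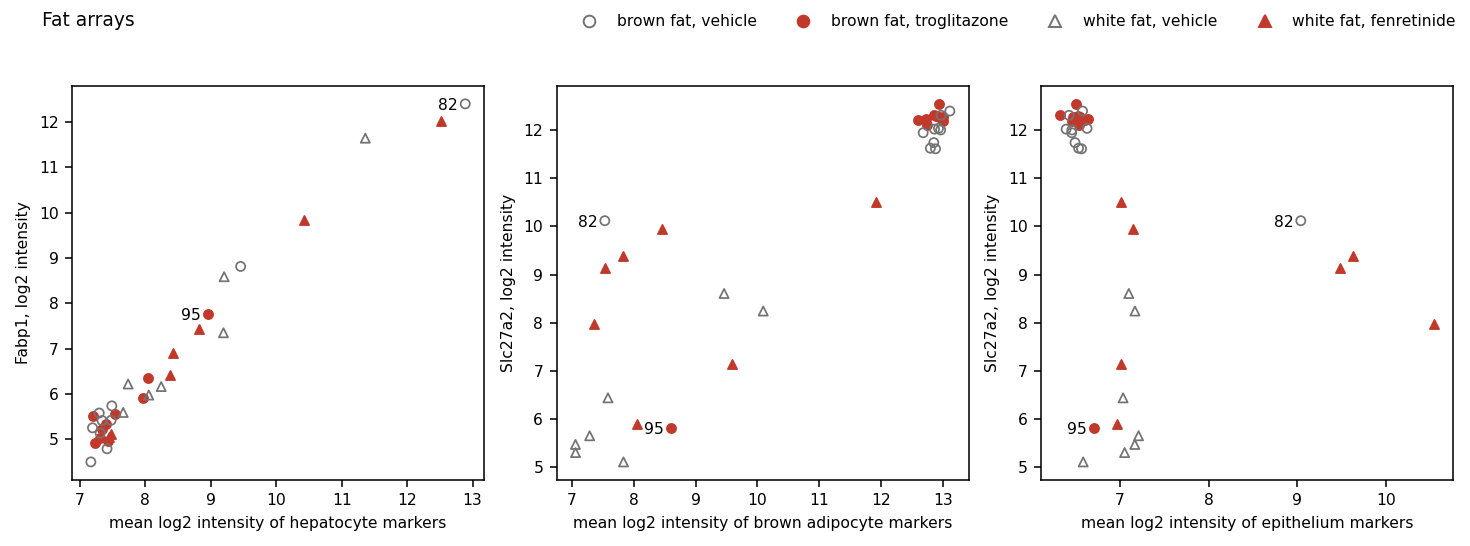
Each point is a fat array (circles brown fat, triangles white fat, open vehicle, filled treated), with Fabp1 against the mean of hepatocyte markers, and Slc27a2 against the means of brown adipocyte and of epithelium markers, all as log2 intensity. Fabp1 reached 12.40 in brown fat mouse 82, where hepatocyte markers averaged 12.89, and the 3 fenretinide arrays of day 15 stand at epithelium means of 9.48 to 10.55.

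Lpl, Fabp4, Cd36, Angptl4 and Gpihbp1 were not called after fenretinide. White adipocyte markers averaged 12.46 to 13.30 in fenretinide mice and 13.41 to 13.59 in vehicle mice on day 15, and 12.50 to 13.16 against 13.72 to 13.94 on day 29. Of the 6 markers, 1 was called lower on day 15, the amino acid transporter gene Slc7a10 (-1.06 ± 0.19, adjusted p = 0.00741), and 3 on day 29: Npr3 (-1.96 ± 0.36, adjusted p = 0.0264), the leptin gene Lep (-2.74 ± 0.55, adjusted p = 0.0354) and Slc7a10 (-0.76 ± 0.16, adjusted p = 0.0439). Without mice 86, 93 and 95, which leaves fewer mice on day 29, those of day 29 were not called. In that order they changed by -2.13 ± 0.52, -2.97 ± 0.78 and -0.83 ± 0.18 (adjusted p = 0.128, 0.158 and 0.0937). The changes were thus no smaller than with all arrays. Their part in the values that follow was not tested. Lpl changed by 0.00 ± 0.09 and -0.10 ± 0.08, Fabp4 by -0.07 ± 0.08 and -0.06 ± 0.07, and Cd36 by -0.19 ± 0.08 (adjusted p = 0.236) and -0.15 ± 0.07 (adjusted p = 0.376). Those values are of the brightest probe sets. The second Lpl probe set changed by -0.17 on day 15 and -0.19 on day 29. The 4 Fabp4 probe sets ranged from -0.41 to 0.00 and from -0.17 to 0.18, with none called. The other 2 Cd36 probe sets changed by -0.36 ± 0.11 (adjusted p = 0.121 over 34945 probe sets) and -0.62 ± 0.11 (adjusted p = 0.0087) on day 15. On day 29 they changed by -0.26 and -0.43 ± 0.10 (adjusted p = 0.0536). The third was thus called on day 15, and so was the mean of the 3 probe sets, at -0.39. Angptl4 on day 15 was 13.24, 13.30 and 13.18 against 13.58, 13.53 and 13.66, a change of -0.35 ± 0.20 (adjusted p = 0.358), and on day 29 it was 0.09 ± 0.17. Gpihbp1 changed by -0.22 ± 0.16 and 0.26 ± 0.14. In the day 15 arrays 1 of 12 endothelium markers was called, Emcn, which rose by 0.94 ± 0.18 (adjusted p = 0.0103). Of the 4 erythroid markers measured, 1 was called, the globin gene Hba-a1, which fell by 0.42 ± 0.09 (adjusted p = 0.0175). On that day 3.95% of all genes were called.

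Vldlr was 9.53, 9.56 and 9.50 after 15 days of fenretinide and 9.80, 9.97 and 9.89 in vehicle mice, a change of -0.36 ± 0.26. On day 29 it was 9.78, 10.55, 10.11 and 9.55 against 10.29, 10.55, 10.43 and 11.32, a change of -0.65 ± 0.22 (adjusted p = 0.183). Fabp5 changed by -0.24 ± 0.18 and -0.40 ± 0.16 (adjusted p = 0.253 on day 29), and Slc27a1 by -0.48 ± 0.29 and 0.32 ± 0.25. Vldlr and Fabp5 had negative changes on both days without passing the test. So had Cd36, Fabp4 and Lpl (-0.004 on day 15) with their brightest probe sets, and 1 dimmer Cd36 probe set was called on day 15.

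For no member was a difference between the effects of day 15 and day 29 called. The share of genes called was 1.33% for fenretinide in white fat and 0% for troglitazone in brown fat, troglitazone in liver and Elmiron in liver. An unadjusted p under 0.05 was found for 1, 0, 2 and 0 members in that order, and for 15.7%, 1.14%, 7.49% and 5.39% of genes. The 2 in troglitazone liver were Fabp4, with 0.63 ± 0.21, and Cd36, where the day 29 effect exceeded that of day 15 by 0.71 ± 0.31 (95% interval 0.07 to 1.35, adjusted p = 0.651). The other differences in that tissue, day 29 minus day 15, were 0.58 ± 0.30 for Fabp5, -0.45 ± 0.25 for Angptl4, 0.31 ± 0.16 for Gpihbp1, 0.14 ± 0.28 for Lpl, and between -0.18 and 0.06 for Fabp1, Slc27a1, Slc27a2 and Vldlr. In Elmiron liver they were 0.45 ± 0.55 for Fabp5, -0.33 ± 0.25 for Cd36, -0.29 ± 0.26 for Gpihbp1, 0.25 ± 0.39 for Fabp4, 0.21 ± 0.24 for Vldlr, and between -0.12 and 0.10 for the other 5.

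In white fat the differences between days were 0.81 ± 0.39 for Slc27a1, 0.49 ± 0.21 for Gpihbp1, 0.44 ± 0.27 for Angptl4, -0.29 ± 0.34 for Vldlr, 1.23 ± 2.07 for Fabp1 and -1.73 ± 1.52 for Slc27a2, and between -0.15 and 0.04 for Cd36, Lpl, Fabp4 and Fabp5. In brown fat they were -1.21 ± 1.25 for Slc27a2, -0.05 ± 1.58 for Fabp1, 0.21 ± 0.34 for Slc27a1, 0.12 ± 0.43 for Vldlr and -0.11 ± 0.23 for Gpihbp1, and between -0.03 and 0.03 for the other 5. Without mice 82 and 95 the differences were -0.33 ± 0.18 for Slc27a2, 0.94 ± 0.83 for Fabp1 and -0.11 ± 0.11 for Fabp5. No brown fat member, when mice 82 and 95 were left out, had an unadjusted p under 0.05 (4.82% of genes).

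Around the members, 6 lists of 78 genes of the same pathways were examined, of which 68 were measured. The lists were chosen with earlier results of these data known. A list share above that of all genes is therefore a description and not a test of the pathways. In troglitazone liver 2 (2.94%) rose on day 15 and 1 (1.47%) on day 29, beside 0.022% and 0.115% of all genes called. Pltp, the phospholipid transfer protein of HDL remodelling, rose by 1.21 ± 0.14 (adjusted p = 9.15e-05) and 1.0 ± 0.14 (adjusted p = 0.00111), and the peroxisomal thiolase gene Acaa1b rose by 0.53 ± 0.08 on day 15 (adjusted p = 0.00208). In brown fat Acaa1b rose by 1.20 ± 0.19 on day 15 (adjusted p = 0.0175), 1 of the 68 (1.47%) beside 0.0605% of genes, and none of the 68 was called on day 29.

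Without mice 82 and 95, 10 of the 68 were called in brown fat on day 15, beside 0.951% of genes, with 8 higher and 2 lower. Those higher were Acaa1b (1.20 ± 0.16), Ppara (0.68 ± 0.11), Lipg, endothelial lipase (0.64 ± 0.12), the convertase gene Pcsk5 (0.51 ± 0.10), Aqp7, the glycerol channel (0.50 ± 0.09), Ehhadh of peroxisomal oxidation (0.43 ± 0.09), Hsd17b11 (0.33 ± 0.06) and the lipid droplet gene Cidec (0.31 ± 0.06). Those lower were the acyl-CoA synthetase gene Acsl3 (-0.54 ± 0.10) and Pparg (-0.49 ± 0.09). On day 29 of that fit 3 of the 68 were called, beside 1.09% of genes: Acsl3 (-0.90 ± 0.11), Acaa1b (0.85 ± 0.18) and Hsd17b11 (0.34 ± 0.07). Elmiron called none of the 68 on either day.

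In white fat 2 of the 68 rose and 3 fell after 15 days of fenretinide (7.35% of the 68, beside 3.95% of genes). Acot1, an acyl-CoA thioesterase, rose by 2.49 ± 0.32 (adjusted p = 6.90e-04) and Got2, a mitochondrial aminotransferase also described as a fatty acid binding protein of the plasma membrane, by 1.01 ± 0.16 (adjusted p = 0.003). Those that fell were Pcsk6, a proprotein convertase (-0.83 ± 0.21, adjusted p = 0.0484), Aqp7 (-0.78 ± 0.14, adjusted p = 0.00712) and Rxra, the partner of the PPARs (-0.40 ± 0.10, adjusted p = 0.038). On day 29 Apoc1, an apolipoprotein that inhibits lipoprotein lipase, rose by 0.69 ± 0.15 (adjusted p = 0.0446) and Cpt1a, which brings fatty acids into mitochondria, fell by 0.58 (adjusted p = 0.0354), 2.94% of the 68 beside 1.34% of genes. Without mice 86, 93 and 95 Pcsk6 was not called on day 15 (adjusted p = 0.0508) and Hsd17b11 was (0.71 ± 0.15). On day 29, with fewer mice, none of the 68 was called. Apoc1 changed there by 0.69 ± 0.21 (adjusted p = 0.226) and Cpt1a by -0.61 ± 0.12 (adjusted p = 0.0651). None of these called genes was a member, and the epithelium markers given above rose in the same day 15 arrays.

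Over the 16 group means, the profiles most like the members' were those of other genes of the same tissues. Cd36 was most like Lgals1, Chpt1 and G3bp2 (Pearson r = 0.996, 0.995 and 0.995), and Lpl was most like Cd36 itself (r = 0.991), then Btbd10 and Chpt1. Gpihbp1 was most like Cavin2 (r = 0.996), Snapc3 and Akap2, and Fabp4 most like Tspan3 (r = 0.999), Lipe and Adipoq. Fabp1 was most like Fga (r = 0.9996), Bhmt and Mug1. Angptl4 was most like Jade1 (r = 0.980), Crebrf and 1110006O24Rik. These are descriptions over 16 points that share tissue, so the contrast of fat with liver sets most of each value.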

How the data were processed

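RNA of white fat, brown fat and liver was hybridised to 74 Affymetrix arrays, 1 for each tissue of a mouse, in 16 groups of 3 to 5. The deposited table holds linear intensity values after RMA (a method that corrects background, quantile-normalizes arrays and summarises probes per probe set), per the submitters' processing notes; further steps are not given in the sources used. The deposited intensity values were taken to log2 here, with no further normalization. Of 45101 probe sets, 34945 with 1 symbol were kept, and the brightest per gene gave 18193 genes. limma 3.58.1 in R 4.3.3 fitted the 4 groups of each tissue and study together, and 40 arrays for brown fat against liver and for troglitazone against Elmiron; a change is called at a Benjamini-Hochberg adjusted p below 0.05 over all genes. The fit was tested on simulated data. The number of arrays limits the precision. Errors after ± are limma's standard errors.

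The labels give 15 mice both a brown fat and a liver array under 1 number, so these are pairs. Their deviations from the group means correlated between -0.135 and 0.151, and 1 pair was over 0.1. A fit with the mouse as a block is an alternative, as are other probe set, normalization, filter and array choices. The files do not say that other mice were independent of cage or batch. Members and lists were chosen with earlier results of these data known. All 10 members are named in every comparison, up to 3 called genes of each list with the smallest adjusted p, and for 6 members the 3 genes most like them. The fits without brown fat mice 82 and 95 or white fat mice 86, 93 and 95, and the list genes named from them, were chosen after the values were seen.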

Additional observations from a re-analysis of the deposited data

Results flagged for a closer look

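Single arrays stood apart from the rest of their group, by a gap over range test at the 95% level, in 15 of 140 gene and group pairs, where chance alone flags about 1 in 20. Brown fat mice 82 and 95 of day 29 account for 7 of the 15. Mouse 82 had Cd36 at 14.40 (next 14.11), Fabp1 at 12.40 and Vldlr at 9.58 (next 11.16). Mouse 95 had Cd36 at 14.55, Lpl at 14.88, Gpihbp1 at 13.14 and Slc27a2 at 5.82 (next 12.11). In brown fat of day 15, vehicle mouse 42 had Cd36 at 13.93 and Fabp1 at 8.81, and troglitazone mouse 55 had Lpl at 14.62. In white fat of day 29, fenretinide mouse 94 had Lpl at 14.93. In liver, Elmiron mouse 53 of day 15 had Cd36 at 7.78, troglitazone study vehicle mouse 88 of day 29 had Lpl at 10.33 (next 11.02), and in the Elmiron study Fabp4 was 9.28 in vehicle mouse 83 and 10.57 in treated mouse 92 of day 29 (next 8.99).

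The effect on Cd36 differed between groups in 2 tests of the difference itself, both of day 29: troglitazone in brown fat minus liver (-1.66), and troglitazone minus Elmiron in liver (1.48).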

How the results depend on the processing

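Of 23 member values called, 21 stayed called under every alternative tried and none reversed. The exceptions, under leaving out 1 array, were Angptl4 between brown fat and liver of day 29 vehicle mice, and the Cd36 difference between troglitazone and Elmiron. Brown fat against liver levels in vehicle mice made up most of the 23, with 10 on each day. The agent effects among the 23 were all of Cd36. Differences between tissues or between agents were not tried with quantile normalization, the filter for dim genes or array weights. The number of members called in white fat on day 15 (0) became 1 with the mean of the probe sets, with array weights, with the 2 groups fitted alone and without mice 86, 93 and 95. In brown fat the 0 of day 15 became 2 with array weights, 1 with the groups fitted alone and 2 without mice 82 and 95, and the 0 of day 29 became 1 with array weights and 1 without those mice. In troglitazone liver the 0 of day 15 became 1 with array weights, and the 1 of day 29 became 2 with array weights and with the vehicle livers of the Elmiron study. In Elmiron liver the 0 of day 15 became 1 with the vehicle livers of the troglitazone study. The 1 member whose troglitazone effect differed between brown fat and liver on day 29 became 2 without mice 82 and 95. Leaving out 1 array at a time gave 1 to 2 members for troglitazone liver on day 29, 1 to 2 for brown fat against liver effects on day 29, and 0 to 1 for troglitazone against Elmiron on day 29; no other count of calls moved by over 1.5 times. The causes were not tested. With the replicate block, which pairs brown fat and liver of the same mouse, the Cd36 effect difference on day 29 was -1.66 (adjusted p = 0.00312), with 1 member called on day 29, 0 on day 15 and 10 on each day for vehicle levels, so the pairing changed no call. Of 157 member values not called, 62 changed sign under some alternative.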
